A study of Mus musculus with 6 samples.

Results

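The genes of mitosis and the G2/M transition were examined in cochlear explants of mice after neomycin damage. These are 51 named genes for cyclins and mitotic kinases, the spindle checkpoint, centromere and kinetochore, the spindle, cytokinesis and condensin, found by symbol among the 24421 symbols of the count table. All 51 were in the table and all 51 passed the filter on low counts, among the 15988 genes tested. Their raw counts lay between 100 and 18893 in any sample.

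The study asked how the neonatal cochlea responds when its sensory hair cells (HCs) are lost, and whether the surrounding supporting cells (SCs) re-enter the cell cycle. Wild-type cochleae were taken at postnatal day 2 and cultured for 12 h. The damaged group received neomycin, an aminoglycoside antibiotic that kills HCs, at 1 mM for 6 h, and culture then went on for 5 days with EdU, a thymidine analog that labels DNA synthesis, at 10 μM. The control group is labelled as control, although the growth text of the labels describes the neomycin step for all 6 samples. Each group held 3 samples, control 1 to 3 and neomycin 1 to 3, and each sample was RNA pooled from 6 to 8 cochleae. The labels do not say how cochleae were divided among samples, so p-values measure the spread between these 6 pools, which may be technical.

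Cells that divide raise a shared set of transcripts late in the cell cycle. Cyclin-dependent kinase 1 with cyclin B drives entry into mitosis, kinesins build the spindle, the checkpoint delays chromosome separation until every kinetochore is attached, and the centralspindlin pathway then splits the cell. In the newborn mouse cochlea most HCs and SCs have left the cell cycle, while SCs keep some capacity to divide, and mesenchyme, glia and other cells of the explant also divide.

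The late timing of these transcripts is known to depend in part on 2 short DNA elements near the start of many G2/M genes. The cell cycle genes homology region (CHR) is bound by the DREAM and MYB-FOXM1 complexes, and the CCAAT box is bound by the factor NF-Y. To show these elements where the data bear on them, 150 bases upstream of 8 members are printed 5′ to 3′ in the direction of the gene, ending before the annotated start in both RefSeq and GENCODE. They include the 5 members that fell by more than 1.5-fold after neomycin, Bub1b, Cenpf, Ect2, Hmmr and Iqgap3. The others are the widely used marker Top2a, which also fell, and Cdk1 and Cdc20, which did not pass the test. Sequences are those of RefSeq on GRCm38.p6, with capitals at CHR matches (TTTGAA or TTTAAA, or TTCAAA where the element lies on the other strand) and CCAAT matches (CCAAT, or ATTGG on the other strand).
Bub1b, chr2:118598061-118598210, plus strand: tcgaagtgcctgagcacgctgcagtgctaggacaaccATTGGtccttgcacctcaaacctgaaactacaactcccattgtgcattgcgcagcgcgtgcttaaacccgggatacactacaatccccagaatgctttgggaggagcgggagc
Cenpf, chr1:189688087-189688236, minus strand: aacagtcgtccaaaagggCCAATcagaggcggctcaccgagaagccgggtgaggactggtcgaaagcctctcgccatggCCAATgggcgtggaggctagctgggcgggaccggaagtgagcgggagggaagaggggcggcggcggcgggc
Ect2, chr3:27153879-27154028, minus strand: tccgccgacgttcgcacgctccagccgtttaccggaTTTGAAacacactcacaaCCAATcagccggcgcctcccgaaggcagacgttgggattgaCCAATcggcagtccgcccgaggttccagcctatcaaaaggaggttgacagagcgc
Hmmr, chr11:40733438-40733587, minus strand: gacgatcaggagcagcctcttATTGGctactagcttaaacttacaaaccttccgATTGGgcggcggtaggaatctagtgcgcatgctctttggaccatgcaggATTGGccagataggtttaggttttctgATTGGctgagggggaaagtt
Iqgap3, chr3:88081821-88081970, plus strand: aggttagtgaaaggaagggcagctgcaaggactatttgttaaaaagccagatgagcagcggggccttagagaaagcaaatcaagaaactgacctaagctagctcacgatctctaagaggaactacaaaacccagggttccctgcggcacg
Top2a, chr11:99024190-99024339, minus strand: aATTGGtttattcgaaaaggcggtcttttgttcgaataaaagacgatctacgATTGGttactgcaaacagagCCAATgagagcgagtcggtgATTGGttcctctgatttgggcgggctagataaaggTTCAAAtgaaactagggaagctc
Cdk1, chr10:69352939-69353088, minus strand: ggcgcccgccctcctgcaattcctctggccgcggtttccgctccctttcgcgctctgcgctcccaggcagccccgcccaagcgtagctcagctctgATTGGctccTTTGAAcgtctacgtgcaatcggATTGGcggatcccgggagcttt
Cdc20, chr4:118437353-118437502, minus strand: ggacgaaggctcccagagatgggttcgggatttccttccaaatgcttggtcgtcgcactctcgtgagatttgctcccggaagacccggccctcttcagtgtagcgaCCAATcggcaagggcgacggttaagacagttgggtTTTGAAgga

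Hmmr and Top2a each held 4 CCAAT boxes in these bases, Cenpf, Ect2 and Cdk1 held 2 each, and Bub1b and Cdc20 held 1 each. CHR letters were present once in Ect2, Top2a, Cdk1 and Cdc20, and were not in the printed bases of Bub1b, Cenpf and Hmmr. In Bub1b, Cenpf and Hmmr a TTTGAA match lies past the RefSeq start, centred at 43, 5 and 11 bases. The printed bases of Iqgap3 held neither element; a CHR match lies closer to its RefSeq start, inside the gene as GENCODE draws it. In the same bases of the 14 members that fell and have a RefSeq window, 3 held neither element: Iqgap3, Nek2 and Nusap1. Nek2 has CCAAT matches closer to its RefSeq start, centred at -23.5 and 9.5 bases.

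The whole RefSeq window, 250 bases before to 50 bases after the start, was available for 44 members; Aurkb, Smc4, Cdc25c, Ccna2, Dlgap5, Kif20a and Tpx2 had none. On either strand, 37 of the 44 windows (84.1%) held a CHR, against 27.8% of the 27025 windows of all genes. The TTTGAA form was in 77.3% against 18.1%. CCAAT was in 72.7% against 37.9%, with at least 2 copies in 50% against 12.2%, and a CHR together with CCAAT was in 68.2% against 10.9%. For comparison, of 31 windows of a DNA replication list, 25.8% held a CHR and 61.3% held CCAAT. The motifs have different letters and do not share a match.

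The CHR matches sat close to the start. The 56 matches of the members had a median centre at -7 bases, and 73.2% lay within 60 bases of the start, against 28.4% of the CHR matches in all windows. The 74 CCAAT matches had a median centre at -63.5 bases. A CHR was present in 11 of the 14 windows of members that fell (78.6%) and in 26 of the 30 others (86.7%). A match of letters is a description of the window and was not tested as a binding site.

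**Figure D1:**
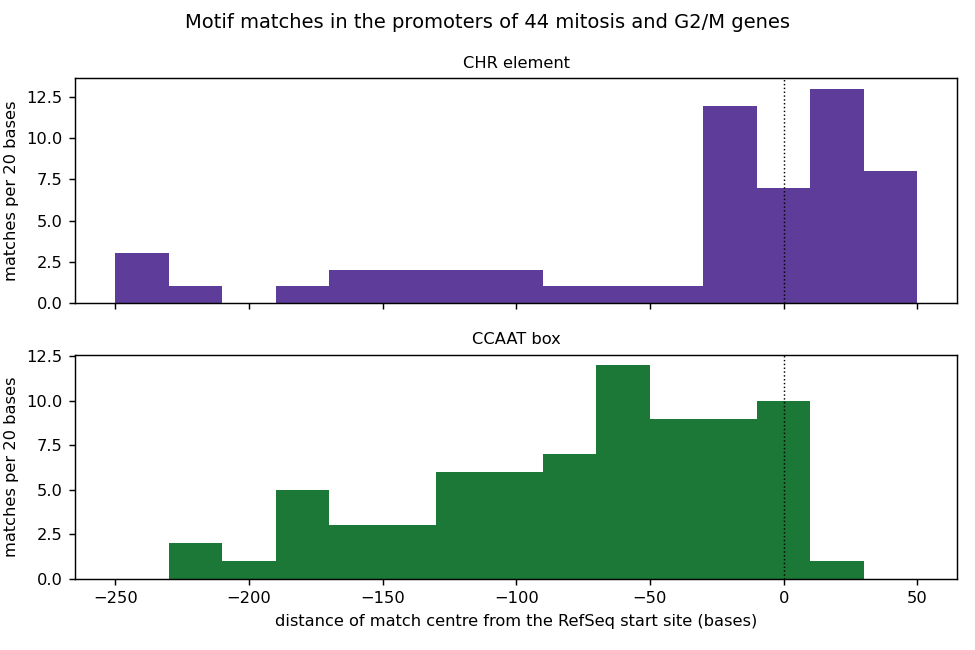
Histogram of CHR matches (top) and CCAAT matches (bottom) in the promoter windows of 44 mitosis and G2/M genes, with the distance of the match centre from the RefSeq start in bases on the x axis and the number of matches per 20 bases on the y axis. CHR matches crowd around the start, with a median of -7, and CCAAT matches lie mostly upstream, with a median of -63.5.

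Total counts per sample ran from 50471116 to 66068108. Levels are given as CPM, which are TMM-scaled counts relative to library size. Differences are log2 fold changes of neomycin against control with their standard errors (SE), from edgeR's quasi-likelihood test, and p-values were adjusted by Benjamini-Hochberg over all 15988 genes. A gene is said to have risen or fallen at an adjusted p under 0.05. It is called differentially expressed, by the thresholds the study used, when its fold change is also over 1.5.

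Most of the mitosis and G2/M genes were lower after neomycin, by a small amount. The log2 fold change was below 0 for 48 of the 51 and above 0 for Cenpa, Cdca3 and Birc5. The median was -0.34, beside -0.00 over all genes tested. There were 17 members that fell (33.3%), where 16.1% of all genes tested fell, and 0 that rose, where 12.9% of all genes rose. At an unadjusted p under 0.05, 25 members were lower and 0 higher in edgeR, and 0 rose with DESeq2 or limma-voom. At the same unadjusted p, 3527 of the 15988 genes tested were lower and 3025 were higher in edgeR. Of the 17, 5 were differentially expressed: Bub1b, Ect2, Hmmr, Cenpf and Iqgap3. That is 9.80% of the members, where 6.6% of all genes were differentially expressed downward and 2.24% upward. Their folds lay just past the threshold, between 1.53 and 1.58, and the other 12 fell by 1.28-fold to 1.43-fold. In bulk RNA, fewer dividing cells and less RNA per dividing cell cannot be told apart.

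The groups did not overlap, with every control sample above every neomycin sample, in 22 of the 51 members (43.1%), beside 22.5% of all genes. The reverse order was found in 0 members, beside 21% of all genes. The 22 were 16 of the 17 members that fell and 6 others, Melk, Espl1, Nuf2, Kif2c, Racgap1 and Ncaph. Mki67 was the 1 member that fell with overlapping groups.

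Samples of the groups came close to each other in the level of the members as a whole. The mean log2(CPM + 1) of the 51 members, set to 0 at the control mean, was 0.09 in control 1, 0.08 in control 2 and -0.17 in control 3. It was -0.29 in neomycin 1, -0.37 in neomycin 2 and -0.15 in neomycin 3. Control 3 was slightly below neomycin 3, and the other 4 samples were separated by group. The SD between replicates of this mean was 0.13.

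The same libraries stood out gene by gene. Control 3 had the lowest value of its group for 42 of the 51 members, and neomycin 3 the highest of its group for 34. Neomycin 3 was above control 3 for 27 of the 51. The count of members that fell depended on which library was left out. It was 7 without control 1, 3 without control 2 and 4 without neomycin 2, and 23 without control 3, 15 without neomycin 1 and 17 without neomycin 3. The excess over all genes went with these counts. Without control 2 the share of members that fell was 5.88% beside 9.3% of all genes, and without neomycin 2 it was 7.84% beside 9.34%, so in these fits the members fell no more often than genes in general. Without control 1 it was 13.7% beside 11.3%. In the other 3 fits it was 29.4% to 45.1%, beside 11.1% to 17.1%. The differentially expressed members numbered 1, 1 and 2 in the first 3 of these fits and 10, 5 and 7 in the others. The share of all genes that were differentially expressed was not computed in these fits, so these counts have no background beside them. Bub1b, Ect2 and Smc2 kept an adjusted p under 0.05 in each of the 15 alternative fits, and no member rose in any of them.

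**Figure D2:**
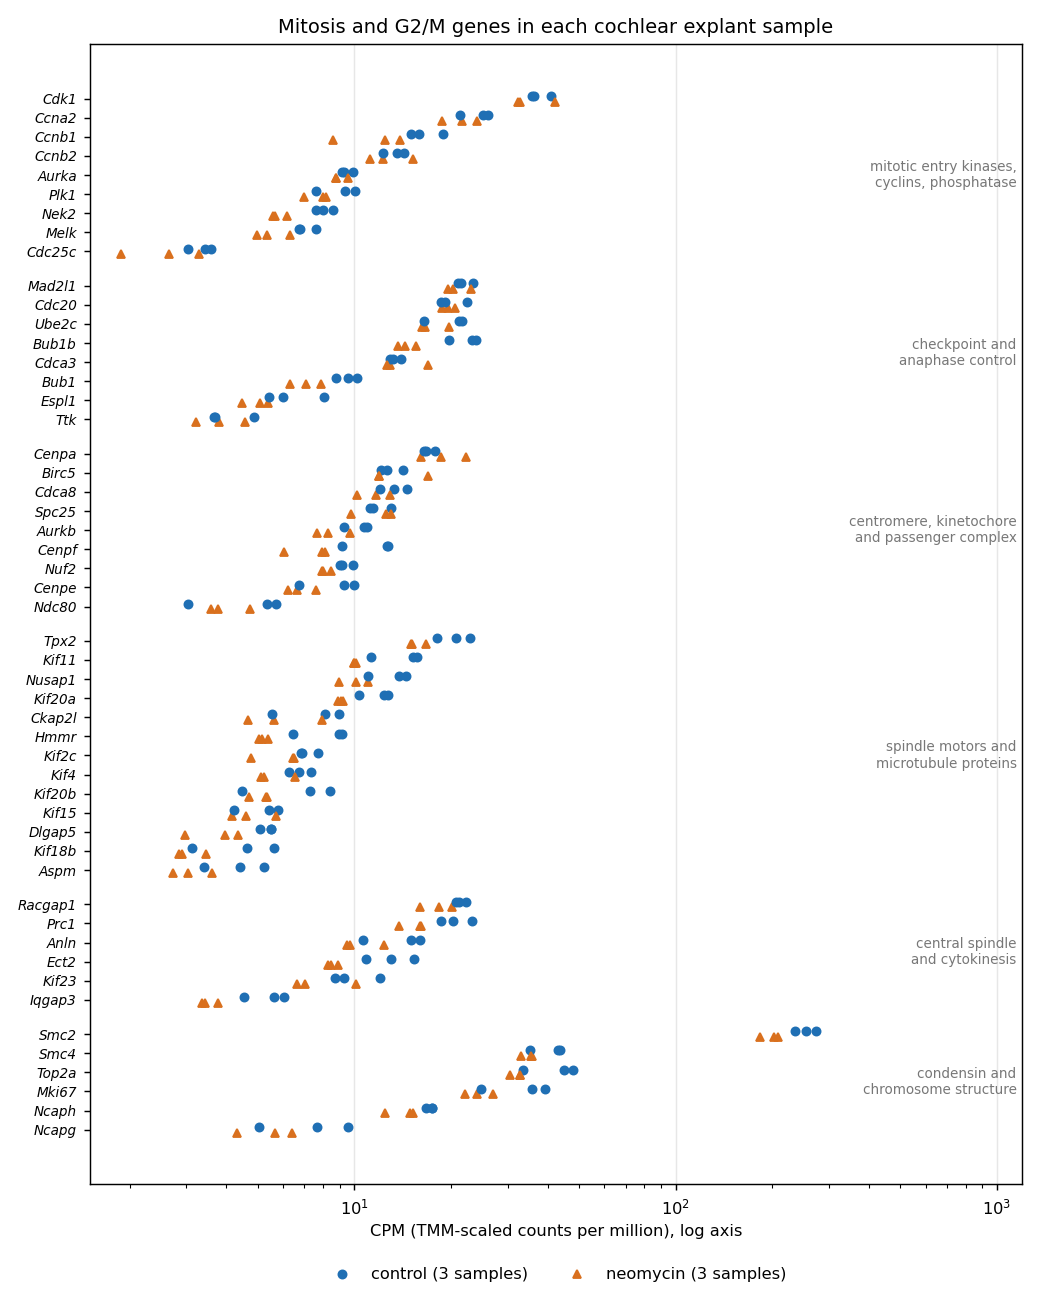
CPM on a log axis for each of the 51 mitosis and G2/M genes in each of 3 control samples (circles) and 3 neomycin samples (triangles), grouped by role. The groups separate fully in 22 genes, and Smc2 lies far above the rest on this scale, which is not divided by length.

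Of the 9 kinases, cyclins and phosphatase of mitotic entry, 2 fell (22.2%, beside 16.1% of all genes). All 9 were below 0 and the median log2 fold change was -0.22. Cdk1, the kinase that starts mitosis, lies on chromosome 10 from 69335146 to 69352938 (GRCm38, GENCODE). It was at 35.7, 41.1 and 36.1 CPM in the control samples and at 32.8, 32.4 and 42.3 CPM in the neomycin samples. Neomycin 3 was the highest of all 6, so the groups overlapped. The log2 fold change was -0.07 (SE 0.11, edgeR adjusted p = 0.651).

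Its cyclin partners did not all show the same values. Ccnb1, cyclin B1, was at 18.9, 15.9 and 15.0 CPM in control and 12.4, 8.56 and 13.8 CPM after neomycin, with no overlap. It fell by 0.52 on the log2 scale (SE 0.16, edgeR adjusted p = 0.0281). Ccnb2, cyclin B2, had a log2 fold change of -0.06 and Ccna2, cyclin A2, of -0.17, and their groups overlapped. The second member of this role that fell was Nek2, a kinase of centrosome separation, at -0.47 (edgeR adjusted p = 0.0176). The kinases Melk at -0.34 and Plk1 at -0.22, the phosphatase Cdc25c at -0.36 and the spindle kinase Aurka at -0.07 did not pass the test.

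Among the genes of the spindle checkpoint and anaphase, 2 of 8 fell (25%, beside 16.1% of all genes) and the median was -0.13. Bub1b encodes BubR1, which holds back the anaphase promoting complex until chromosomes are attached, and lies on chromosome 2 from 118598211 to 118641591. It was at 24.0, 19.8 and 23.3 CPM in control and 14.4, 13.7 and 15.5 CPM after neomycin. The groups stood well apart, at 22.3 ± 2.25 and 14.5 ± 0.942 CPM (SD, n = 3), and the log2 fold change was -0.62 (SE 0.10, edgeR adjusted p = 0.00119), the smallest p of the 51 members.

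Bub1, the kinase that recruits BubR1 to kinetochores, fell as well, at -0.43 (edgeR adjusted p = 0.0281). Mad2l1, the member of highest CPM in this role and the inhibitor of Cdc20, lies on chromosome 6 from 66535390 to 66547220. It was at 21.5, 23.4 and 21.0 CPM in control and 19.6, 20.3 and 23.0 CPM after neomycin, so the groups overlapped. The log2 fold change was -0.07 (SE 0.09, edgeR adjusted p = 0.637). Cdc20, the activator of the anaphase promoting complex, was at -0.03, its ubiquitin-conjugating partner Ube2c at -0.17, the checkpoint kinase Ttk at -0.08 and separase, Espl1, at -0.38, and none of these passed the test. Cdca3, which triggers destruction of the Wee1 kinase, was at 0.08.

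Of the 9 centromere, kinetochore and chromosomal passenger genes, 1 fell (11.1%, beside 16.1% of all genes), and the median was -0.20. Cenpf, a large coiled-coil protein of the kinetochore that accumulates in G2, lies on chromosome 1 from 189640606 to 189688086. It was at 12.7, 12.7 and 9.18 CPM in control and 7.91, 6.03 and 8.14 CPM after neomycin. Control 3 was the lowest control and still lay above all neomycin samples. The log2 fold change was -0.65 (SE 0.16, edgeR adjusted p = 0.0100), and -0.39 (edgeR adjusted p = 0.0532) once corrected for gene length.

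Cenpa, the histone H3 variant that marks the centromere, had the highest log2 fold change of all 51 members and lies on chromosome 5 from 30666777 to 30674830. It was at 16.7, 17.8 and 16.5 CPM in control and 16.1, 18.6 and 22.2 CPM after neomycin. The neomycin samples spanned the whole control range, and the log2 fold change of 0.16 did not pass the test (SE 0.12, edgeR adjusted p = 0.327). The passenger genes Birc5, encoding survivin, Cdca8, encoding borealin, and Aurkb had log2 fold changes of 0.07, -0.20 and -0.27. Those of the NDC80 complex genes Ndc80, Nuf2 and Spc25, which binds microtubules at the kinetochore, were -0.23, -0.20 and -0.01. The kinetochore motor Cenpe was at -0.35. None of these 7 passed the test.

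Of the 13 spindle motors and microtubule proteins, 6 fell (46.2%, beside 16.1% of all genes). The median was -0.39 and all 13 were below 0. Hmmr, a microtubule protein of the spindle pole that is also known as a hyaluronan receptor, lies on chromosome 11 from 40701395 to 40733422 and had the lowest log2 fold change of the 51 members. It was at 8.96, 9.16 and 6.46 CPM in control and 5.05, 5.37 and 5.18 CPM after neomycin. The neomycin samples lay close together below every control. The log2 fold change was -0.66 (SE 0.16, edgeR adjusted p = 0.00872), and the adjusted p was 0.0517 without control 2.

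Tpx2, which activates Aurora A on spindle microtubules and had the highest CPM of this role, lies on chromosome 2 from 152847964 to 152895321. It was at 22.9, 20.7 and 18.1 CPM in control and 15.1, 15.0 and 16.7 CPM after neomycin, with no overlap. It fell by 0.40 on the log2 scale (SE 0.11, edgeR adjusted p = 0.0156). The other spindle genes that fell were Kif11 at -0.49, the kinesin that pushes the poles apart, Kif20a at -0.38, a kinesin of the central spindle, Nusap1 at -0.39 and Dlgap5 at -0.52, both microtubule-bundling proteins (adjusted p from 0.0150 to 0.0427, edgeR).

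The remaining spindle genes were below 0 without passing the test. Kif18b, a kinesin that trims microtubule ends, had the lowest value of the 34 members that did not pass, at -0.54 (SE 0.22, edgeR adjusted p = 0.0807). It was at 5.64, 4.64 and 3.13 CPM in control and 2.92, 2.85 and 3.44 CPM after neomycin, so that control 3 lay within the neomycin range. Aspm, a spindle pole protein, was at -0.48, Kif20b at -0.39, Ckap2l at -0.32, Kif2c at -0.28, Kif4 at -0.26 and Kif15 at -0.10.

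All 6 genes of the central spindle and cytokinesis were below 0, with the lowest median of the 6 roles at -0.42. Of these, 3 fell (50%, beside 16.1% of all genes). Ect2, the exchange factor that activates RhoA at the division site, lies on chromosome 3 from 27097222 to 27153878. It was at 13.0, 15.4 and 10.9 CPM in control and 8.92, 8.30 and 8.49 CPM after neomycin. Every neomycin sample was below the lowest control, with a log2 fold change of -0.61 (SE 0.13, edgeR adjusted p = 0.00548).

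Iqgap3, a scaffold of the IQGAP family, lies on the same chromosome from 88081971 to 88121048. It was at 6.06, 5.64 and 4.54 CPM in control and 3.77, 3.36 and 3.43 CPM after neomycin. The groups did not overlap, and the log2 fold change was -0.62 (SE 0.17, edgeR adjusted p = 0.0163). Without control 1, without control 2, without neomycin 2 and with the length correction the adjusted p was 0.05 or more, up to 0.0675.

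Racgap1, the centralspindlin subunit that recruits Ect2, had the highest CPM of this role and lies on chromosome 15 from 99620496 to 99651656. It was at 22.2, 21.2 and 20.7 CPM in control and 20.1, 16.0 and 18.4 CPM after neomycin. The groups did not overlap, but the log2 fold change of -0.24 did not pass the test (SE 0.10, edgeR adjusted p = 0.0948). Kif23, the kinesin of the same complex, was at -0.34 and Anln, the contractile ring protein anillin, at -0.40, without passing. Prc1, which bundles the microtubules of the central spindle, fell by 0.44 (edgeR adjusted p = 0.0111).

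The 6 genes of condensin and mitotic chromosome structure were all below 0, with a median of -0.38. Of these, 3 fell (50%, beside 16.1% of all genes). Smc2, a core ATPase subunit of condensin, lies on chromosome 4 from 52439243 to 52488260. It was at 274, 254 and 235 CPM in control and 184, 209 and 202 CPM after neomycin. All neomycin samples were below all controls, and the log2 fold change was -0.36 (SE 0.08, edgeR adjusted p = 0.00711). Its partner Smc4 had a log2 fold change of -0.23 (edgeR adjusted p = 0.0787), and the non-SMC subunits Ncaph and Ncapg had -0.28 and -0.44 without passing.

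The other members of this role that fell are common markers of cycling cells. Top2a, the topoisomerase that untangles sister chromatids, was at 44.8, 47.8 and 33.6 CPM in control and 32.7, 30.5 and 32.9 CPM after neomycin, with a log2 fold change of -0.39 (SE 0.11, edgeR adjusted p = 0.0222). Control 3 lay just above the highest neomycin sample. Mki67, encoding the Ki-67 protein that coats mitotic chromosomes, was at 39.1, 35.8 and 24.9 CPM in control and 24.2, 22.2 and 26.9 CPM after neomycin, with a log2 fold change of -0.45 (SE 0.14, edgeR adjusted p = 0.0334). Control 3 lay below neomycin 3. With the length correction these log2 fold changes were -0.23 and -0.25, with adjusted p of 0.0967 and 0.144 (edgeR).

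**Figure D3:**
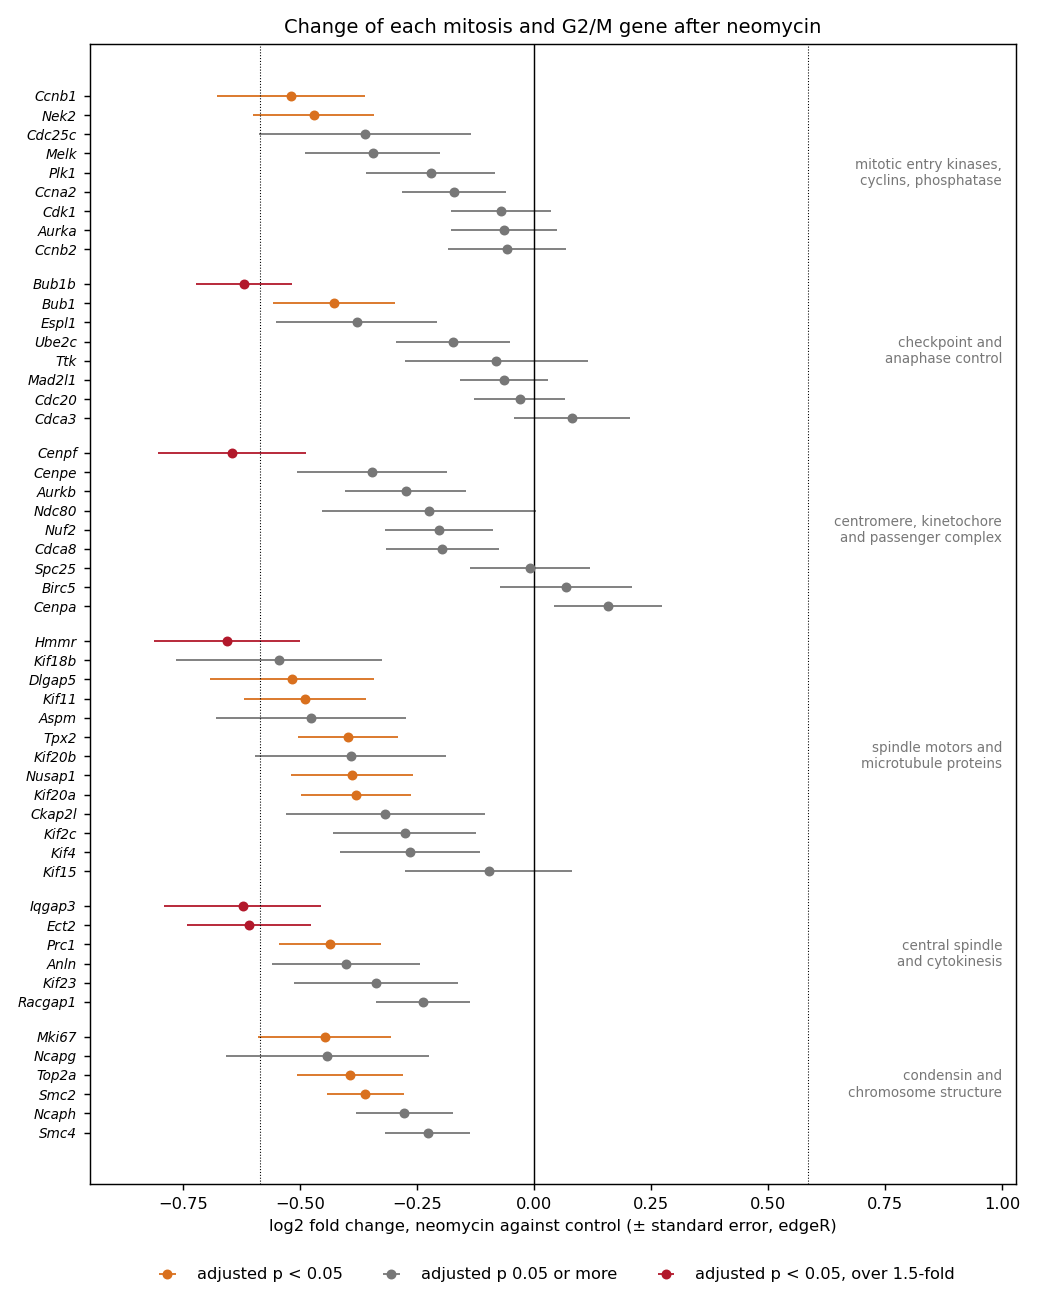
Log2 fold change of neomycin against control for each of the 51 mitosis and G2/M genes with its SE (edgeR), grouped by role and ordered within each role; dotted lines mark a 1.5-fold change. The 5 genes in red passed both thresholds, the 12 in orange had an adjusted p under 0.05 with a smaller fold, and Cenpa, Cdca3 and Birc5 lie to the right of 0.

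Compared between genes per kilobase of exon, Smc2 stood apart from the other members. Its level was 46.4 CPM per kilobase in control and 36.1 after neomycin, whereas the other 50 members lay between 0.375 and 10.7 in control and between 0.270 and 10.5 after neomycin. The median of the 51 was 2.52 CPM per kilobase in control and 1.93 after neomycin. Smc2 and Smc4 form the same complex in equal numbers, and the Smc2 level per kilobase was 5.95 times that of Smc4 in control and 5.42 times after neomycin. The counting did not state its strand setting. An exon of 13 members overlaps an annotated exon on the opposite strand, and their reads could be shared. Among these 13 are Nek2, Kif20a, Nusap1 and Prc1 of the members that fell, but neither Smc2 nor Smc4.

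Longer members had lower fold changes. Over the 51 members, the log2 fold change and the log2 exon length had a Pearson r of -0.435, and Spearman's rho was -0.415. The same trend ran through all 15862 tested genes with a known length (r = -0.272, rho = -0.407), and genes share the 6 libraries, so no p is given. The members were split by length into 3 classes of 17. In the shortest class, from 1531 to 4307 bases, the median log2 fold change was -0.22 and 3 fell. It was -0.28 with 7 in the middle class and -0.40 with 7 in the longest class, from 6805 to 15433 bases.

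Removing the trend on length from each library, by a lowess fit, brought the class medians closer together, in reversed order. From the shortest class to the longest they became -0.31, -0.27 and -0.25, and 4, 7 and 2 members fell. Over the 51 members Pearson's r became 0.146 and Spearman's rho 0.19. The median over all 51 moved to -0.27, with 47 below 0. There were 13 members that fell (25.5%), beside 13.1% of all genes. Of the 17 members that fell before, 12 still fell, Cenpf, Dlgap5, Iqgap3, Top2a and Mki67 did not, and Melk was added. The differentially expressed members were then 2, Bub1b at -0.62 and Hmmr at -0.59. In the short gene Ccnb2 the log2 fold change moved from -0.06 to -0.31, and in Plk1 from -0.22 to -0.38, without passing.

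**Figure D4:**
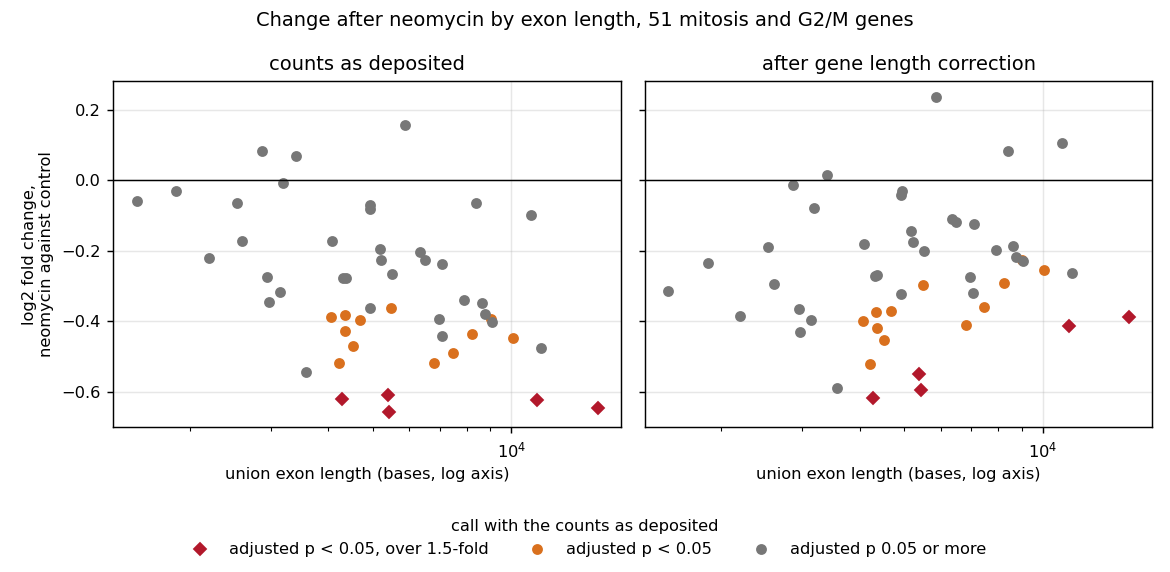
Log2 fold change of neomycin against control (y axis) by union exon length in bases (log x axis) for the 51 mitosis and G2/M genes, with the counts as deposited (left) and after the gene length correction (right); colors give the call with the counts as deposited. On the left the points slope down (Pearson r = -0.435). On the right the medians of the 3 length classes lie between -0.25 and -0.31 (Pearson r = 0.146).

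Other genes of cell division, outside the 51, were set beside them by list. Of all genes tested 16.1% fell and 12.9% rose, and 13.1% fell with the length correction. In that corrected fit 3729 of 15862 genes passed in either direction, and 2077 of these fell. The share that fell was 25.6% for spindle genes, 10.5% for kinetochore genes and 28.6% for condensin and cohesin genes. It was 5.88% for the anaphase promoting complex, 17.9% for regulators, 15.4% for DNA replication and 23.1% for CDK inhibitors and cyclin D. Of 39 other spindle, centrosome and cytokinesis genes, 10 fell and 1 rose. Their median was -0.23. The 4 that were differentially expressed were Cit, encoding citron kinase of cytokinesis, at -1.84, Arhgap11a at -0.63, Ckap2 at -0.62 and Sapcd2 at -0.61 (adjusted p from 0.000352 to 0.0176, edgeR). Cit was at a low level, 3.09, 2.57 and 1.67 CPM in control and 0.734, 0.678 and 0.633 CPM after neomycin. Of the list, 6 fell with the length correction. Pttg1, encoding securin, the inhibitor of separase, was the gene that rose, at 0.49 (edgeR adjusted p = 0.00432).

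Of 38 other kinetochore and checkpoint genes, 4 fell and 1 rose, and the median was -0.07. Those that fell were all differentially expressed. They were Knl1, the scaffold that Bub1 binds, at -1.29, Hjurp, the chaperone that loads Cenpa, at -0.68, Kntc1 at -0.68 and Sgo2a, a protector of cohesin, at -0.59 (adjusted p from 0.00471 to 0.0250, edgeR). Hjurp was at 6.93, 6.59 and 6.05 CPM in control and 3.94, 4.20 and 4.06 CPM after neomycin, so its groups stood apart while those of Cenpa overlapped. Pmf1 rose by 0.34. With the length correction Kntc1 did not pass (edgeR adjusted p = 0.0558), and of these genes Knl1 alone stayed past both thresholds, at -1.13.

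Among 14 other condensin and cohesin genes 4 fell and 0 rose, with Pds5a, a regulator of cohesin, at -0.69 (edgeR adjusted p = 0.000109). Pds5a, at -0.41 with the length correction, was then the 1 gene of the list that fell. Of 17 genes of the anaphase promoting complex, 3 rose and 1 fell, and the median was above 0 at 0.15. Anapc13, a small subunit, was at 38.7, 38.1 and 42.8 CPM in control and 63.6, 67.6 and 69.3 CPM after neomycin, with a log2 fold change of 0.75 (SE 0.07, edgeR adjusted p = 3.23e-05). Of the complex, 7 genes rose and 1 fell with the length correction, and Anapc13 was at 0.61.

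Of 28 regulators of mitotic entry and of G2/M transcription, 5 fell and 1 rose, and the median was -0.07. The differentially expressed ones were Foxm1 and Mybl2, transcription factors known to act on CHR-bearing G2/M genes. Foxm1 was at 11.5, 9.22 and 7.33 CPM in control and 6.33, 5.02 and 7.35 CPM after neomycin, with control 3 just under neomycin 3, and its log2 fold change was -0.59 (SE 0.18, edgeR adjusted p = 0.0301). Mybl2 was at 4.23, 5.67 and 3.97 CPM in control and 1.81, 3.22 and 3.44 CPM after neomycin, without overlap, at -0.71 (SE 0.24, edgeR adjusted p = 0.0460). With the length correction Foxm1 was at -0.51 (edgeR adjusted p = 0.0491), under the fold threshold, and Mybl2 at -0.68 did not pass (edgeR adjusted p = 0.0564). In that fit 5 regulators fell and 3 rose.

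Of 39 DNA replication genes, which act earlier in the cycle, 6 fell and 1 rose, and the median was -0.11. None was differentially expressed in edgeR, with 11 lower and 3 higher at an unadjusted p under 0.05, and with the length correction 3 fell and 1 rose. Of 13 genes of CDK inhibitors, D-type cyclins and their kinases, 3 fell and 2 rose. Cdkn1c, the inhibitor p57, was at 252, 177 and 199 CPM in control and 372, 381 and 400.2 CPM after neomycin, and it rose by 0.88 (SE 0.11, edgeR adjusted p = 0.000209). Ccnd2, cyclin D2, was differentially expressed at -0.61 and Ccnd1, cyclin D1, fell by 0.40 (edgeR adjusted p = 0.000741 and 0.00833). Ccnd2 was under the fold threshold with the length correction, at -0.43. Cdkn1a, the inhibitor p21, was at 0.02 and Cdkn1b, the inhibitor p27 that SCs and HC precursors use to leave the cycle, was at -0.06, and neither passed the test (edgeR adjusted p = 0.868 and 0.603).

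**Figure D5:**
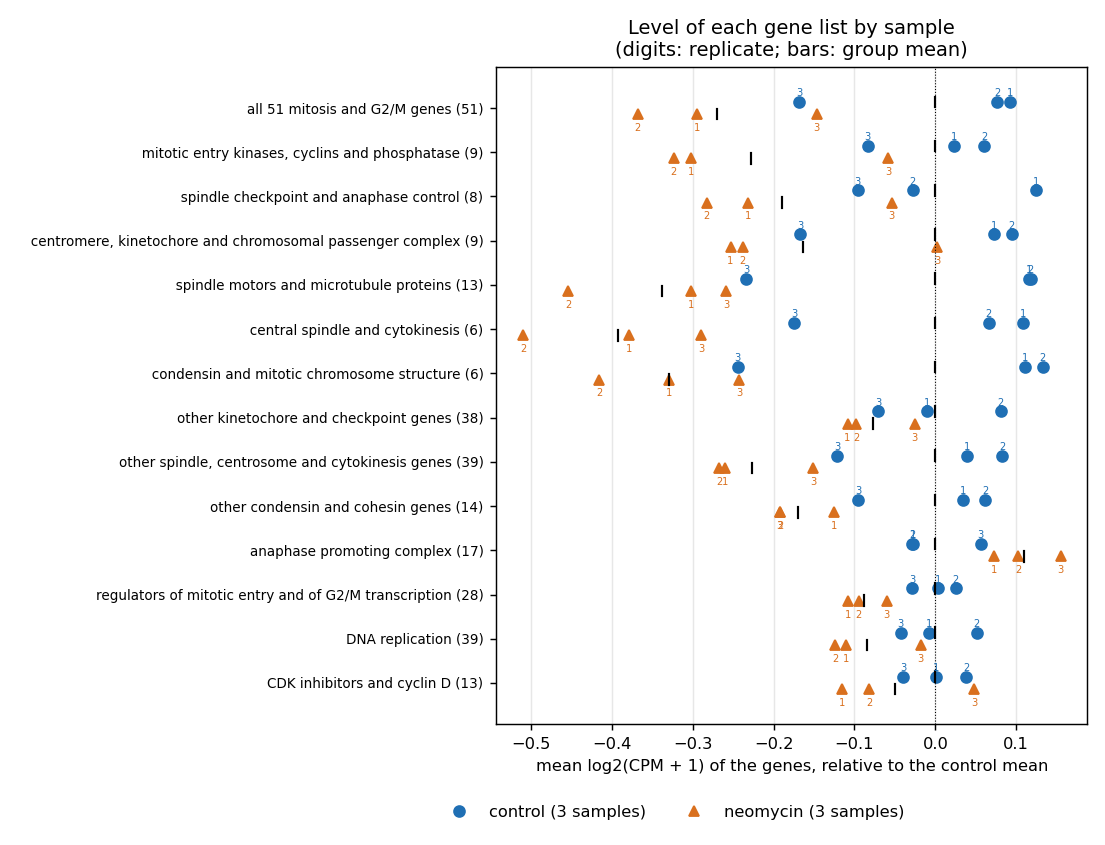
Mean log2(CPM + 1) of each gene list in each sample relative to the control mean, for all 51 mitosis and G2/M genes, their 6 roles and 7 other cell division lists; circles are control samples, triangles neomycin samples, digits the replicate, bars the group means, and numbers in parentheses the genes per list. In the row of all 51 genes control 3 (-0.17) lies just left of neomycin 3 (-0.15), whereas the anaphase promoting complex lies to the right of its controls.

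Markers of several cell types moved with the treatment. Of 20 HC markers 19 fell and 0 rose. The median was -2.00 on the log2 scale, and their summed level was 1143 to 1321 CPM in control and 444 to 542 CPM after neomycin. Of 15 macrophage markers 8 rose and 1 fell (5 and 1 with the length correction), with sums of 234 to 294 and 314 to 385 CPM. Of 12 endothelial markers 7 fell, with a median of -1.53, while their sums of 367 to 414 CPM in control and 349 to 400.1 CPM after neomycin overlapped. Most of these sums came from Emcn, which had means of 252 and 273 CPM and did not pass the test. Of 17 SC markers 3 fell and 2 rose, with a median of 0.11, and with the length correction 3 fell and 4 rose. Their sums were 5854 to 7008 CPM in control and 7453 to 10560 CPM after neomycin, most of it from Tectb, a gene of the tectorial membrane, and without Tectb they were 2166 to 2204 and 2208 to 2406 CPM. Of 13 mesenchyme markers 5 fell and 2 rose (sums of 7600.1 to 8211 and 7777 to 8066 CPM), and of 12 markers of Schwann cells and glia 3 fell and 1 rose (688 to 774 and 712 to 734 CPM). Of 14 neuronal markers 4 fell and 2 rose (295 to 403 and 303 to 321 CPM), and of 6 melanocyte markers 1 fell (88.0 to 97.4 and 79.6 to 86.2 CPM). Most of the melanocyte sums came from Kit, the gene that fell, with means of 59.7 and 48.7 CPM. The median of the 6 was 0.06, and 0 fell with the length correction. Among erythroid markers the globin genes Hba-a1, Hba-a2, Hbb-bs and Hbb-bt were at 0 in every sample, and none of the 3 that were tested passed in edgeR, with 1 lower at an unadjusted p under 0.05. The part of these cell types in the fall of the mitotic genes was not tested.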

How the data were processed

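RNA-seq was made from 6 samples of cochlear explants, 3 per group. Per the labels, bases were called with CASAVA 1.8 and reads were trimmed with Trimmomatic 0.23, aligned to mm10 with HISAT2 and counted per gene with HTSeq, and DESeq2 was also named. The authors deposited raw counts, whole numbers per gene symbol, without normalization. Strand and multi-mapping settings are not given in the sources used here.

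The counts were scaled by TMM, filtered with filterByExpr and tested with edgeR 4.0.16 (R 4.3.3) over all genes, group only. Members and gene lists were chosen with earlier results of these data known. Values in every sample are given for members called differentially expressed, the member of highest CPM in each role and the extremes of fold change. They are also given for others named beside them. Kif18b, Ccnb1, Top2a, Mki67, Tectb, Emcn and Kit, and the genes shown by sample in the other lists, were chosen after their values were seen. Older symbols Casc5 and Sgol2a were read as Knl1 and Sgo2a. Exon lengths came from GENCODE for 99.2% of tested genes. The CHR and CCAAT letters were searched in RefSeq windows, the first window listed for each gene. Alternatives were DESeq2 1.42.0, limma-voom (limma 3.58.1), 3 other scalings, other filters, a length correction (lowess, span 0.3), the replicate number as a block, and each sample left out. The code was tested on simulated data. The number of samples and their spread set the precision. Not every erythroid marker is reported here.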

Additional observations from a re-analysis of the deposited data

How the results depend on the processing

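Between 16 and 20 members fell with DESeq2, limma-voom, the RLE, upper quartile and total count scalings and the other filters on low counts. These counts were 31.4% to 39.2% of the members, beside 13.4% to 20% of all genes in the same fits. The 20 members with total count scaling were 39.2%, beside 20% of all genes. The count of differentially expressed members was 5 in each of these fits except 7 with total count scaling. Total count scaling moved the median of all genes to -0.07 and that of the members to -0.42. With the gene length correction 2 members were differentially expressed and 13 fell (25.5% of the members, beside 13.1% of all genes). Leaving out 1 sample at a time gave 1 to 10 differentially expressed members, 3 to 23 that fell (5.88% to 45.1% of the members, beside 9.3% to 17.1% of all genes) and medians between -0.26 and -0.40. Each of these fits holds 1 sample fewer, and the cause of the differences between them was not tested. The share of all genes that were differentially expressed was computed only in the reported fit.

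Several small log2 fold changes turned sign. With the length correction Mad2l1 was at 0.083, Cdca3 at -0.013 and Kif15 at 0.11, with upper quartile scaling Spc25 was at 0.013, and with total count scaling Birc5 was at -0.0032. With 1 sample left out, the ranges were -0.20 to 0.035 for Ccnb2, -0.22 to 0.079 for Ttk, -0.069 to 0.063 for Cdc20, -0.070 to 0.16 for Cdca3, -0.088 to 0.11 for Spc25, -0.12 to 0.16 for Birc5 and -0.23 to 0.0028 for Kif15. None of these 8 genes passed the test in the analysis reported.

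The labels number the samples of each group 1 to 3 without saying that a number marks a shared litter or day. Deviations from the group means correlated at 0.352, 0.0367 and 0.191 between samples of the same number. Control 1 was closest to neomycin 1 and control 3 to neomycin 3, while control 2 was closest to neomycin 3 (0.0909). These values cannot tell whether a number marks a pairing, and the reported fit used group only. With the replicate number as a block, 19 members fell (37.3%, beside 20.2% of all genes), Racgap1 and Ncaph being added. In that fit 5 members were differentially expressed, and 6014 genes in all passed, in either direction, in place of 4629.

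With 3 samples per group, the differences of Cdk1 and Cenpa are within the spread between samples. Every member had at least 100 counts in every sample, and the part of depth in the missing calls was not tested.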
